A study of Mus musculus with 18 samples.

Results

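Fibrillar collagens are the ropes of the heart's extracellular matrix, and the data described here follow 10 genes for their chains and for the proteins that process them. The genes are Col1a1, Col1a2, Col3a1, Col5a1, Col5a2 and Col5a3, which encode chains of collagen types I, III and V, and Serpinh1, Pcolce, Lox and Sparc. They were chosen by name with earlier results of these data known, and every probe set annotated to 1 of these symbols alone was kept. The shares of all probe sets printed beside their counts are therefore a description and no independent test. The choice gave 24 of 45037 probe sets, and 10 of the 18193 genes that have a probe set of their own. No probe set was dropped for a low value, although 4 of the 24 (1 of Col1a2, 1 of Col5a3 and 2 of Lox) had a mean log2 value under 5 over the 18 arrays. For each gene the probe set with the highest mean over the 18 arrays is called the leading probe set.

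The arrays measured left ventricular RNA of wild type C57Bl/6 female mice aged 3 to 4 months. NP/Sed were sedentary virgin females in diestrus, MP females at day 11 of gestation, LP females at days 18 to 19, and 0PP females within 12 hours after giving birth, while 7EX and 21EX had run on wheels of their own accord for 7 or 21 days. Each of the 6 groups had 3 arrays, and each array held RNA pooled from 2 to 3 hearts. The pool is therefore the unit of replication (n = 3 per group), and the p-values below measure the spread between pools. The values are the log2 values that the authors obtained with RMA over all arrays, so that a difference of 1 is a change by a factor of 2. Array medians lay between 4.934 and 5.024, and the 8 cardiomyocyte markers had mean log2 values of 12.17 to 14.68.

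In the heart, fibrillar collagens are made mainly by fibroblasts. Type I collagen, built from the products of Col1a1 and Col1a2, gives the matrix its tensile strength, type III collagen, built from Col3a1, forms thinner and more compliant fibrils, and type V collagen (Col5a1, Col5a2, Col5a3) starts fibrils and limits their width. Procollagen chains are hydroxylated and wound into a helix in the endoplasmic reticulum, where the chaperone HSP47 (Serpinh1) holds them until export. Outside the cell the propeptides are cut off by proteases, and PCPE-1 (Pcolce) enhances the removal of the C-propeptide. The fibrils are cross-linked by lysyl oxidase (Lox), and SPARC (Sparc) binds collagen and aids its deposition.

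Most of these transcripts had their lowest mean in late pregnancy, and 5 of the 10 genes rose from LP to 0PP at their leading probe sets. LP had the lowest of the 6 group means at 9 of 10 leading probe sets and at 17 of 24 in all, beside 17.2% of all probe sets. At 4 leading probe sets, those of Col1a1, Col1a2, Col3a1 and Pcolce, and at 8 of 24 in all, the 3 LP arrays lay below all 15 others, which held for 0.666% of all probe sets. LP was lower with an adjusted p under 0.05 (limma, Benjamini-Hochberg over all probe sets) against each of the 5 other groups at 3 of 24 probe sets, both of Col3a1 and 1 of Col1a1, beside 0.0644% of all probe sets. It was lower in at least 4 of the 5 comparisons at 6 of 24, beside 0.235%. The 5 comparisons share the LP arrays and are not independent of each other. At the other end, MP had the highest group mean at 9 of 24 probe sets and 4 of 10 leading ones, beside 19.4% of all probe sets. The arrays were of whole ventricle, in which fewer collagen-producing cells and less collagen RNA per cell cannot be told apart.

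**Figure D1:**
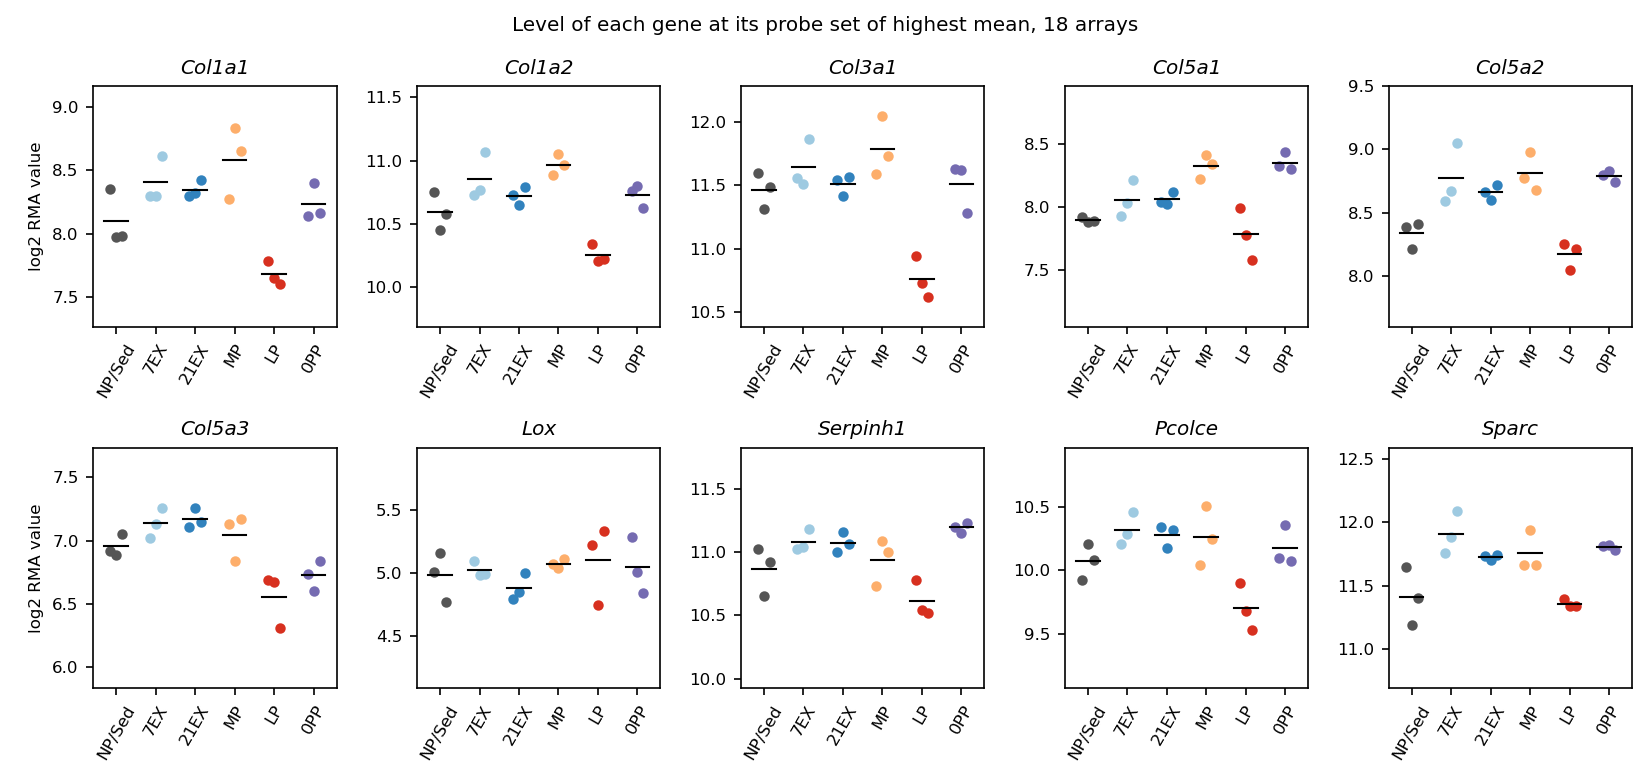
Log2 RMA value (y axis, 1 panel per gene, each with its own offset but the same span) of the leading probe set in the 3 arrays of each group (points, x axis) with the group mean (line). The LP points lie below every other array for Col1a1, Col1a2, Col3a1 and Pcolce, while those of Lox hold both the lowest and the highest value of that gene.

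Col3a1 had the widest swing of the 10 genes. Its leading probe set read 11.60, 11.31 and 11.49 in the NP/Sed arrays, 11.59, 12.05 and 11.73 in MP, 10.94, 10.73 and 10.62 in LP and 11.63, 11.62 and 11.28 in 0PP. In the exercise groups it read 11.56, 11.51 and 11.87 (7EX) and 11.54, 11.42 and 11.57 (21EX). The 3 LP arrays stood apart from all others, and the remaining 5 groups, in the order NP/Sed, 0PP, 21EX, 7EX and MP, overlapped each with the next. The change from NP/Sed to LP was -0.71 ± 0.13 (log2 fold change ± SE, adjusted p = 0.00767), and that from LP to 0PP was 0.75 ± 0.13 (adjusted p = 0.00811). In linear terms the transcript decreased by 38.7% into LP, and 0PP was higher than LP by 68.0%. Between 0PP and NP/Sed the difference was 0.04, with a 95% interval of -0.23 to 0.31. The other probe set of Col3a1 followed the same course over the 18 arrays (r = 0.95, a description) with wider steps, -1.02 ± 0.16 from NP/Sed to LP (adjusted p = 0.00243) and 1.13 ± 0.16 from LP to 0PP (adjusted p = 0.00179). It was the one member probe set of 24 that also passed the study's fold limit of 75% (0.807 on the log2 scale) in LP against NP/Sed, beside 0.233% of all probe sets.

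Col1a1, the gene of the α1 chain of type I collagen, read 8.35, 7.97 and 7.98 in NP/Sed, 8.27, 8.83 and 8.65 in MP, 7.78, 7.65 and 7.60 in LP and 8.14, 8.40 and 8.16 in 0PP at its leading probe set. The exercised pools read 8.30, 8.30 and 8.61 (7EX) and 8.30, 8.32 and 8.42 (21EX). All LP arrays lay below all others, and the other 5 groups overlapped with their neighbours in the order NP/Sed, 0PP, 21EX, 7EX and MP. Here neither step passed the threshold: LP minus NP/Sed was -0.42 (95% interval -0.70 to -0.15, adjusted p = 0.128) and 0PP minus LP was 0.56 (0.28 to 0.83, adjusted p = 0.0526). The other Col1a1 probe set (7.57, 7.98 and 7.82 in NP/Sed, 7.34, 6.80 and 6.95 in LP, 7.86, 8.05 and 7.89 in 0PP) passed both, with -0.76 ± 0.14 (adjusted p = 0.00695) and 0.90 ± 0.14 (adjusted p = 0.00271). Both probe sets gave the same direction and fell on either side of the threshold, and when they were averaged, Col1a1 passed in both comparisons (-0.59, adjusted p = 0.0125, and 0.73, adjusted p = 0.00428).

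Col1a2 encodes the α2 chain of type I collagen. Its leading probe set read 10.75, 10.45 and 10.58 in NP/Sed, 10.89, 11.05 and 10.97 in MP, 10.34, 10.21 and 10.22 in LP and 10.76, 10.80 and 10.63 in 0PP, beside 10.73, 10.77 and 11.07 in 7EX and 10.73, 10.65 and 10.79 in 21EX. Again the LP arrays were below all 15 others, and the neighbours among the remaining groups overlapped (NP/Sed, 21EX, 0PP, 7EX, MP from low to high). Against NP/Sed, LP was at -0.33 (95% interval -0.53 to -0.13), which did not pass (adjusted p = 0.1). From LP to 0PP the transcript rose by 0.47 ± 0.10 (adjusted p = 0.0244). A dimmer Col1a2 probe set rose by 0.67 ± 0.12 (adjusted p = 0.0102) from LP to 0PP, with -0.19 (95% interval -0.44 to 0.06) between NP/Sed and LP. The last, with a mean under 5, did not pass in any of the 9 comparisons.

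The RefSeq start regions of members that moved together from LP to 0PP are shown for 1 gene each of type I collagen, type III collagen and the folding step. Start regions of 7 of the 10 genes were searched. Col1a1, Col5a2 and Lox were not among them, so the member counts below do not cover these genes. The 150 bases before the start (GRCm38.p6, 5′ to 3′ on the strand of the gene) are given for Col1a2 (chr6:4505468-4505617, plus strand), Col3a1 (chr1:45311388-45311537, plus strand) and the collagen chaperone Serpinh1 (chr7:99353240-99353389, minus strand). Capitals mark a CCAAT in Col1a2, a TATAAA in Col3a1 and a GGGCGG in Serpinh1.
Col1a2: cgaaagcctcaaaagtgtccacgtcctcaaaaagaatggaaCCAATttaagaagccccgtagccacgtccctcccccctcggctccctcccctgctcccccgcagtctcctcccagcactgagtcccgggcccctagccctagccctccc
Col3a1: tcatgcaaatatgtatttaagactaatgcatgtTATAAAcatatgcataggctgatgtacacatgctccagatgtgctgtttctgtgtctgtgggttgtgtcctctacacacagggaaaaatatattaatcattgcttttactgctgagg
Serpinh1: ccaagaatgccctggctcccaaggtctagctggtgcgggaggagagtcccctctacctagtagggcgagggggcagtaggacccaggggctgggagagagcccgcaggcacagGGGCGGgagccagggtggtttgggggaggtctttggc
In the 250 bases before the start, searched on both strands, TATAAA was present in 1 of 7 members (Col3a1) and in 12.4% of 32851 windows of that length. CCAAT was present in 2 of 7 (Col1a2 and Col5a3) and in 33.8%, and GGGCGG in 5 of 7 (Col1a2, Col5a1, Col5a3, Serpinh1 and Pcolce) and in 32.7%. No 2 matches in the members overlapped. A match describes letters in a window and not a bound site. Col3a1 and Col5a2 lie beside each other on mouse chromosome 1, with 0 protein-coding genes between them in that annotation.

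The type V chains had narrower ranges, and at Col5a1 and Col5a2 the LP arrays overlapped those of NP/Sed. Col5a1, the gene of the α1(V) chain, read 7.92, 7.88 and 7.89 in NP/Sed, 8.22, 8.41 and 8.34 in MP, 7.99, 7.78 and 7.58 in LP and 8.32, 8.43 and 8.30 in 0PP, beside 7.93, 8.03 and 8.21 in 7EX and 8.04, 8.02 and 8.12 in 21EX. LP overlapped NP/Sed and 7EX, whereas MP and 0PP together lay above every array of the other 4 groups. Col5a1 was at -0.11 in LP against NP/Sed (95% interval -0.31 to 0.09) and rose by 0.57 ± 0.10 from LP to 0PP (adjusted p = 0.0065), to a level 0.45 ± 0.10 above NP/Sed (adjusted p = 0.0237). Of its other probe sets, the brighter was at -0.26 and 0.43 in these comparisons and the dimmer at 0.02 and 0.24, and none of the 4 values passed.

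Col5a2, for the α2(V) chain, read 8.39, 8.21 and 8.41 in NP/Sed, 8.77, 8.98 and 8.68 in MP, 8.25, 8.05 and 8.21 in LP and 8.80, 8.83 and 8.74 in 0PP, beside 8.59, 8.67 and 9.05 in 7EX and 8.66, 8.60 and 8.72 in 21EX. LP and NP/Sed overlapped at the low end, and both lay below all arrays of the other 4 groups. The transcript was at -0.17 in LP against NP/Sed (95% interval -0.39 to 0.05) and rose by 0.62 ± 0.11 from LP to 0PP (adjusted p = 0.00735), which placed 0PP 0.45 ± 0.11 above NP/Sed (adjusted p = 0.0369). The second probe set had the same direction (-0.36 and 0.57) without passing (adjusted p = 0.312 and 0.103).

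Col5a3, for the α3(V) chain, had its lowest means in LP and 0PP. It read 6.92, 6.89 and 7.05 in NP/Sed, 6.69, 6.67 and 6.31 in LP and 6.74, 6.60 and 6.84 in 0PP, beside 7.13, 6.84 and 7.17 in MP, and it lay between 7.02 and 7.26 in the exercised pools. LP and 0PP overlapped each other, and both lay below NP/Sed without overlap. The difference was -0.39 (95% interval -0.62 to -0.16, adjusted p = 0.0811) for LP against NP/Sed, -0.22 (-0.45 to 0.01) for 0PP against NP/Sed and 0.17 (-0.06 to 0.40) for 0PP against LP, and none passed.

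Serpinh1, the collagen chaperone, was lowest in LP and highest after birth. Its leading probe set read 11.02, 10.65 and 10.92 in NP/Sed, 10.78, 10.54 and 10.52 in LP and 11.20, 11.15 and 11.23 in 0PP. It lay between 10.73 and 11.09 in MP and was at most 11.18 in the exercised pools. The order from low to high was LP, NP/Sed, MP, 21EX, 7EX and 0PP, each group overlapping the next. LP was at -0.25 against NP/Sed (95% interval -0.47 to -0.02, adjusted p = 0.306), and 0PP was higher than LP by 0.58 ± 0.11 (adjusted p = 0.0122). The other Serpinh1 probe set, whose probes may also match related sequences, gave -0.21 and 0.40, neither past the threshold.

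Pcolce, the enhancer of C-propeptide removal, read 9.92, 10.21 and 10.08 in NP/Sed, 10.04, 10.51 and 10.25 in MP, 9.90, 9.68 and 9.53 in LP and 10.10, 10.36 and 10.07 in 0PP, with 10.18 to 10.46 in the exercised pools. The LP arrays lay below all others, the highest of them at 9.90 against 9.92 for the lowest NP/Sed array, and the other groups overlapped. Neither step passed: -0.36 (95% interval -0.62 to -0.11, adjusted p = 0.165) into LP and 0.47 (0.22 to 0.73, adjusted p = 0.0837) out of it. Its second probe set gave -0.27 and 0.41.

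Sparc, the collagen-binding matricellular protein, read 11.65, 11.19 and 11.40 in NP/Sed, 11.66, 11.94 and 11.66 in MP, 11.39, 11.34 and 11.34 in LP and 11.81, 11.82 and 11.78 in 0PP. LP and NP/Sed overlapped, with a difference of -0.06 (95% interval -0.28 to 0.16), and both lay below the other 4 groups. The step from LP to 0PP was 0.45 (0.23 to 0.67, adjusted p = 0.0526), and 0.45 as well at the second bright probe set (adjusted p = 0.0532). A dim Sparc probe set, with values from 5.25 to 6.03, ran against these (r = -0.53 and -0.55 over 18 arrays) and passed in none of the 9 comparisons.

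Lox, the cross-linking enzyme, was the 1 gene whose mean was highest in LP. Its leading probe set read 5.01, 5.16 and 4.77 in NP/Sed, 5.22, 4.75 and 5.33 in LP and 5.28, 5.01 and 4.84 in 0PP, beside 5.07, 5.04 and 5.11 in MP. Each group overlapped its neighbours in the order of the means, the LP arrays held both the lowest and the highest value, and the group means differed by 0.22 at most. LP minus NP/Sed was 0.12 (95% interval -0.16 to 0.40) and 0PP minus LP was -0.06 (-0.33 to 0.22). All 3 Lox probe sets were dim, and 2 of them had a mean under 5, so a change within these intervals was not detectable here. None of the 3 passed in any of the 9 comparisons.

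Over the 24 probe sets, late pregnancy against NP/Sed gave 3 of 24 probe sets lower and 0 higher (limma, adjusted p under 0.05), beside 0.484% of all probe sets called lower and 1.19% called higher. At an unadjusted p under 0.05 the counts were 11 lower and 0 higher. A Cyber-T test, the kind the authors used, gave 3 and 0, beside 1.7% of all probe sets in either direction. No share of all probe sets is given for the unadjusted p, here or below, so the unadjusted counts cannot be set against all probe sets. The median log2 fold change was -0.29 over the 10 leading probe sets and -0.011 over all probe sets. At 9 of 24 probe sets all LP arrays lay below all NP/Sed arrays, beside 8.39% of all probe sets, and 20 of 24 log2 fold changes were under 0, beside 53.3%. The count was 3 whichever of the 18 arrays was left out. The beta-actin 3′ minus 5′ signal, a measure of RNA integrity, overlapped between LP (1.17 to 1.28) and NP/Sed (1.11 to 1.36). The Gapdh 3′ minus 5′ signal had group means from -0.05 (7EX) to 0.04 (MP). A fit adjusted for the mean of both signals in each array, called the 3′ minus 5′ covariate below, again gave 3.

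From LP to 0PP 8 of 24 probe sets rose and 0 fell, beside 0.566% of all probe sets called higher and 0.318% called lower. They belonged to Col1a1, Col1a2, Col3a1, Col5a1, Col5a2 and Serpinh1. At 16 of 24 probe sets the 0PP arrays all lay above the LP arrays, beside 8.07% of all probe sets, and at 1, of Lox, all lay below, beside 7.52%. The median over the leading probe sets was 0.51 (-0.006 over all). The Cyber-T test called 16, beside 1.4% of all probe sets in either direction, and at an unadjusted p under 0.05 the count was also 16. Leaving out 0PP replicate 2 left 4, LP replicate 2 or 3 left 5, and MP replicate 2, which enters through the shared estimate of the spread, gave 14. The 3′ minus 5′ signal of beta-actin was 1.28 to 1.32 in 0PP and 1.17 to 1.28 in LP. In the fit adjusted for the 3′ minus 5′ covariate, 10 of 24 rose. A fit of the LP and 0PP arrays alone left 3, and there the leading probe sets of Col3a1 (adjusted p = 0.0578), Serpinh1 (0.056), Col1a2 (0.0826) and Col5a1 (0.104) no longer passed.

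**Figure D2:**
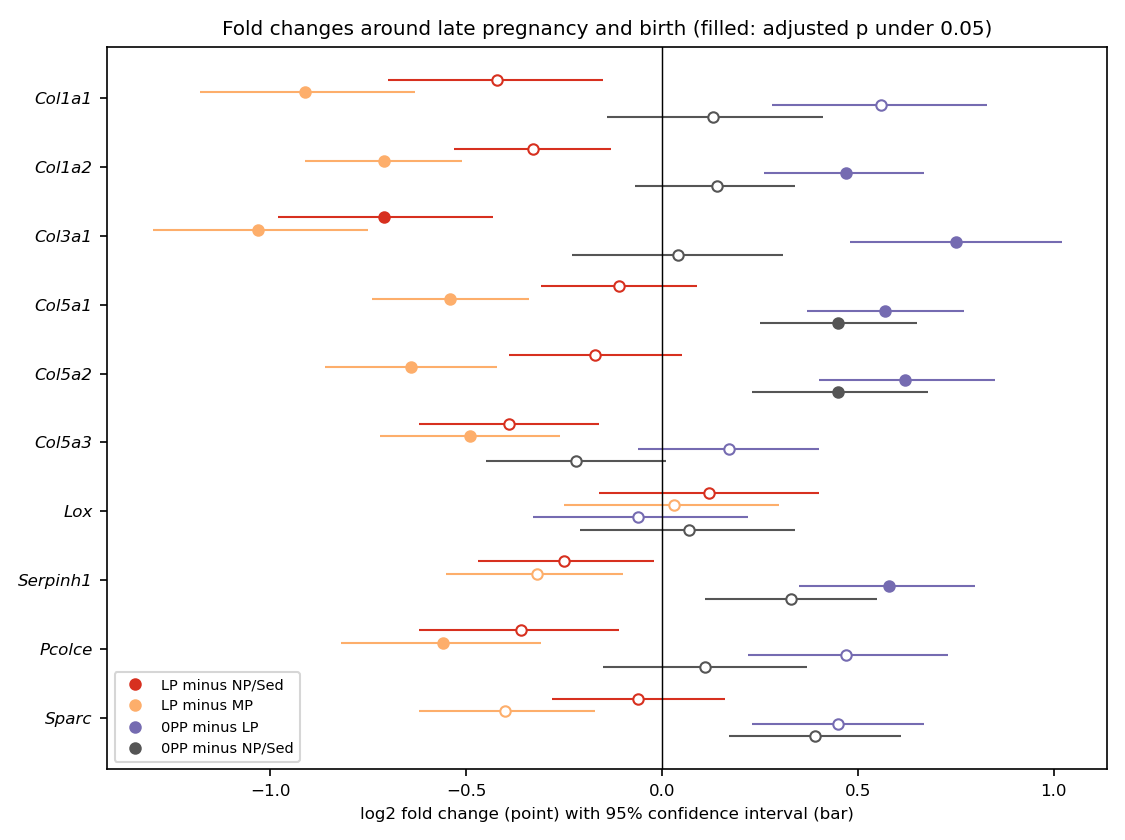
Log2 fold change (point, x axis) with its 95% confidence interval (bar) at the leading probe set of each gene (y axis) in 4 comparisons around late pregnancy and birth, filled where the adjusted p is under 0.05. Col3a1 is filled in LP minus NP/Sed (-0.71), 5 genes are filled in 0PP minus LP, and the intervals of Lox all include 0.

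Late pregnancy was also set against mid-pregnancy. Against MP, 14 of 24 probe sets were lower in LP (0.573% of all probe sets lower), at 7 of 10 leading probe sets: Col3a1 (-1.03 ± 0.13), Col1a1 (-0.91 ± 0.13), Col1a2 (-0.71 ± 0.10), Col5a2 (-0.64 ± 0.11), Pcolce (-0.56 ± 0.12), Col5a1 (-0.54 ± 0.10) and Col5a3 (-0.49 ± 0.11). Their adjusted p ran from 0.000682 for Col3a1 to 0.0285 for Col5a3. Sparc (-0.40, adjusted p = 0.0748), Serpinh1 (-0.32, adjusted p = 0.15) and Lox (0.03) did not pass at the leading probe set. The beta-actin 3′ minus 5′ signal was higher in MP (1.32 to 1.35) than in LP, and 12 probe sets passed after adjustment for the 3′ minus 5′ covariate. At 15 of 24 probe sets all LP arrays lay below all MP arrays, beside 10.7% of all probe sets. With Cyber-T 15 were lower, beside 2.74% of all probe sets in either direction, and at an unadjusted p under 0.05 the count was 17.

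In MP 4 of 24 probe sets were higher than in NP/Sed, beside 0.615% of all: Col1a2 (0.71 ± 0.12 at a probe set that does not lead, adjusted p = 0.00824), Col5a1 (0.43 ± 0.10, adjusted p = 0.0351), Col5a2 (0.47 ± 0.11, adjusted p = 0.0365) and Sparc (0.50 ± 0.11 at its second bright probe set, adjusted p = 0.029). Col1a1 (0.48), Col1a2 (0.38) and Col3a1 (0.32) were higher at their leading probe sets without passing, with 95% intervals of 0.21 to 0.76, 0.18 to 0.58 and 0.05 to 0.59. This count depended on single arrays, falling to 1 without NP/Sed replicate 2 or 3 or without MP replicate 2 or 3 and reaching 7 without MP replicate 1. It was also 1 after adjustment for the 3′ minus 5′ covariate. With Cyber-T 7 were higher, beside 3.43% of all probe sets in either direction, and 13 were higher and 0 lower at an unadjusted p under 0.05.

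After birth 4 of 24 probe sets were higher than in NP/Sed and 0 lower under limma, beside 1.46% and 0.517% of all probe sets. At an unadjusted p under 0.05 the counts were 6 and 2. The Cyber-T test gave 5 and 0, beside 3.01% of all probe sets in either direction. The 4 were probe sets of Col1a2 (0.48 ± 0.12, adjusted p = 0.0445), Col5a1, Col5a2 and Sparc (0.47 ± 0.11, adjusted p = 0.0327). The leading probe sets of Col1a1 (0.13), Col1a2 (0.14) and Col3a1 (0.04) had intervals that reach from below 0 to at most 0.41. MP and 0PP were both compared with the same NP/Sed arrays. Leaving out NP/Sed replicate 2 or 3 or 0PP replicate 2 or 3 left 0 of the 4, and leaving out 0PP replicate 1 left 1.

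**Figure D3:**
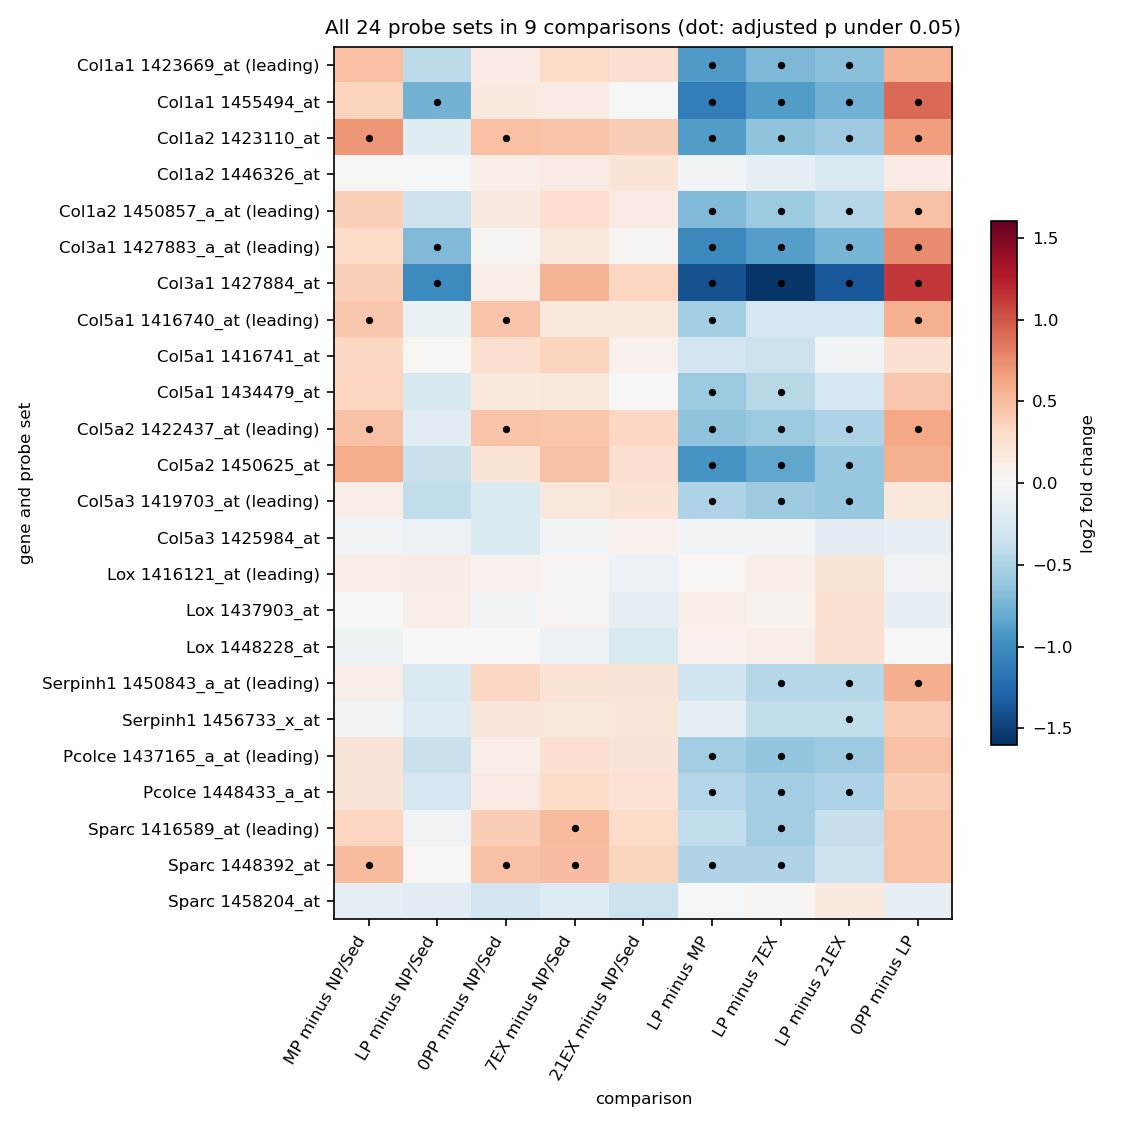
Log2 fold change (colour, blue lower and red higher) of all 24 probe sets (y axis, leading ones marked) in the 9 comparisons (x axis), with a dot where the adjusted p is under 0.05. The columns of LP against MP, 7EX and 21EX are mostly blue with 14, 15 and 13 dots, the column of 0PP minus LP is mostly red with 8, and the probe sets of Lox carry none.

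In 7EX 2 of 24 probe sets were higher than in NP/Sed, both of Sparc (0.50 ± 0.11, adjusted p = 0.0397, and 0.49 ± 0.11, adjusted p = 0.0404), beside 0.409% of all probe sets. Cyber-T called 5 higher, beside 2.8% of all probe sets in either direction, and at an unadjusted p under 0.05 11 of 24 were higher and 0 lower. Sparc read 11.76, 11.88 and 12.09 in 7EX, above every NP/Sed array. Neither Sparc probe set passed when 1 of 5 arrays was left out (NP/Sed replicate 2 or 3, 7EX replicate 2 or 3, 21EX replicate 3), and 1 passed without 21EX replicate 1 or MP replicate 3. The beta-actin 3′ minus 5′ signal was lower in 7EX (1.05 to 1.09) than in all other groups, and 0 passed after adjustment for the 3′ minus 5′ covariate (limma). In 21EX 0 of 24 passed under limma, beside 1.38% of all probe sets called higher and 1.37% lower. At an unadjusted p under 0.05 the counts there were 6 higher and 2 lower. The Cyber-T test called 2 higher, beside 4.51% of all probe sets in either direction, while limma called 1 without NP/Sed replicate 1.

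Set directly against the exercised groups, LP was lower at 15 of 24 probe sets against 7EX (1.43% of all probe sets) and at 13 against 21EX (1.69%). Col3a1 led in both (-0.88 ± 0.13 and -0.75 ± 0.13), followed against 7EX by Col1a1 (-0.72), Pcolce (-0.62), Col1a2 and Col5a2 (-0.60 each), Col5a3 (-0.58), Sparc (-0.56) and Serpinh1 (-0.46). Against 21EX the leading probe sets of Sparc (-0.37, adjusted p = 0.0722) and Col5a1 (-0.28, adjusted p = 0.144) did not pass and the 7 that passed ranged from -0.75 to -0.46. After adjustment for the 3′ minus 5′ covariate the count against 7EX was 7, and that against 21EX was 12. Without 21EX replicate 3 the latter was 6, without LP replicate 2 it was 7, and without LP replicate 3 it was 8. The Cyber-T test called 16 and 15 lower, beside 3.99% and 4.59% of all probe sets in either direction. At an unadjusted p under 0.05, 18 were lower against 7EX, and 17 lower and 2 higher against 21EX. Lox was at 0.08 and 0.22 in these comparisons.

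Other genes of the pathway were counted by list. For the list counts here and below, limma called 1.19% of all probe sets higher and 0.484% lower in LP minus NP/Sed. In 0PP minus LP it called 0.566% higher and 0.318% lower. The Cyber-T test called 1.7% and 1.4% in these comparisons, in either direction. The 5 other fibrillar collagens measured (Col2a1, Col11a1, Col11a2, Col24a1, Col27a1) had 0 calls in LP minus NP/Sed and 0PP minus LP with limma and with the Cyber-T test, and 1 lower and 1 higher, respectively, at an unadjusted p under 0.05. Of these, 4 had a mean under 5, and Col27a1 was at -0.23 in LP. Of 16 genes for hydroxylation and folding in the endoplasmic reticulum, 1 was higher in LP and 0 lower, with a median of 0.02, and from LP to 0PP 1 rose and 1 fell. The Cyber-T test gave 1 higher into LP, and 2 higher and 1 lower out of it. At an unadjusted p under 0.05 there were 1 higher and 2 lower into LP, and 5 higher and 1 lower out of it. The gene higher in LP was P3h4, which encodes a partner of a lysyl hydroxylase complex, and it ran opposite to the collagens. It read 7.91, 8.16 and 8.10 in NP/Sed, 8.48, 8.45 and 8.52 in LP and 7.83, 7.99 and 8.07 in 0PP. The LP arrays lay above those of both other groups, with 0.42 ± 0.08 from NP/Sed to LP (adjusted p = 0.0116) and -0.52 ± 0.08 from LP to 0PP (adjusted p = 0.0041). Ppib, the prolyl isomerase cyclophilin B, rose by 0.36 ± 0.08 from LP to 0PP (adjusted p = 0.0259). P4ha1, an α subunit of prolyl 4-hydroxylase, was higher in 0PP than in NP/Sed by 0.63 ± 0.12 (adjusted p = 0.0163), with 0.50 (adjusted p = 0.0626) against LP.

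Among 4 cross-linking enzymes besides Lox, Loxl1, a lysyl oxidase known for its role in elastic fibres, was the one that moved. It read 8.83, 8.79 and 8.68 in NP/Sed, 8.35, 8.16 and 8.50 in LP and 8.82, 8.95 and 9.05 in 0PP. All LP values were below the rest, with -0.43 ± 0.09 into LP (adjusted p = 0.0248) and 0.60 ± 0.09 out of it (adjusted p = 0.00389). Loxl3 (0.18 and 0.03), Loxl4 (-0.08 and 0.03) and Tgm2 (0.24 and 0.05) did not pass. Of all probe sets limma called 0.484% lower into LP and 0.566% higher out of it. The Cyber-T test likewise called 1 of the 4 lower into LP and 1 higher out of it, and at an unadjusted p under 0.05 there was also 1 higher into LP. Of 5 propeptide proteases and enhancers, including Bmp1 (-0.20 and 0.12), the protease that removes the C-propeptide, 0 passed in either comparison under limma or Cyber-T, with 1 lower into LP and 2 higher out of it at an unadjusted p under 0.05. These were the 5 measured of 7 listed, and 3 of them had a mean under 5.

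Of 17 genes for proteins that coat or link fibrils, 4 rose and 1 fell from LP to 0PP, beside 0.566% and 0.318% of all probe sets. In LP minus MP 6 were lower, beside 0.573% of all probe sets called lower, and 1 was higher, for which no share is given. The 4 that rose were Col6a3 (0.57 ± 0.09, adjusted p = 0.00266), Col6a2 (0.52 ± 0.10, adjusted p = 0.0202), Col6a1 (0.42, adjusted p = 0.0369) and Col14a1 (0.70, adjusted p = 0.04), which encode the chains of microfibrillar collagen VI and the fibril-associated collagen XIV. Thbs2, the matricellular protein thrombospondin 2, fell by 0.58 (adjusted p = 0.0122) after having risen by 0.54 ± 0.11 into LP (adjusted p = 0.0116), from 6.60, 6.72 and 6.31 in NP/Sed to 7.03, 7.00 and 7.22 in LP and back to 6.45, 6.56 and 6.51 in 0PP. In LP minus NP/Sed limma called 1 of the 17 higher (Thbs2) and 0 lower. By Cyber-T 1 was higher and 2 were lower there, and at an unadjusted p under 0.05 2 were higher and 5 lower, with Col14a1 at -0.63 (adjusted p = 0.0505). From LP to 0PP the Cyber-T test called 5 higher and 1 lower, and 8 were higher and 2 lower at an unadjusted p under 0.05. Of 15 genes of the TGF-beta pathway, a well known inducer of fibrillar collagens, 0 passed in either comparison under limma or Cyber-T, with 2 higher and 3 lower into LP and 2 higher out of it at an unadjusted p under 0.05. Against 7EX limma called 1 of the 15 lower in LP and 1 higher, and against 21EX 2 lower and 0 higher. Of all probe sets 1.43% and 1.69% were called lower there, and no share is given for the 1 higher. Smad3 was lower in LP in both (-0.36, adjusted p = 0.0138, and -0.31, adjusted p = 0.033). The part of this pathway in the course of the collagens was not tested.

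**Figure D4:**
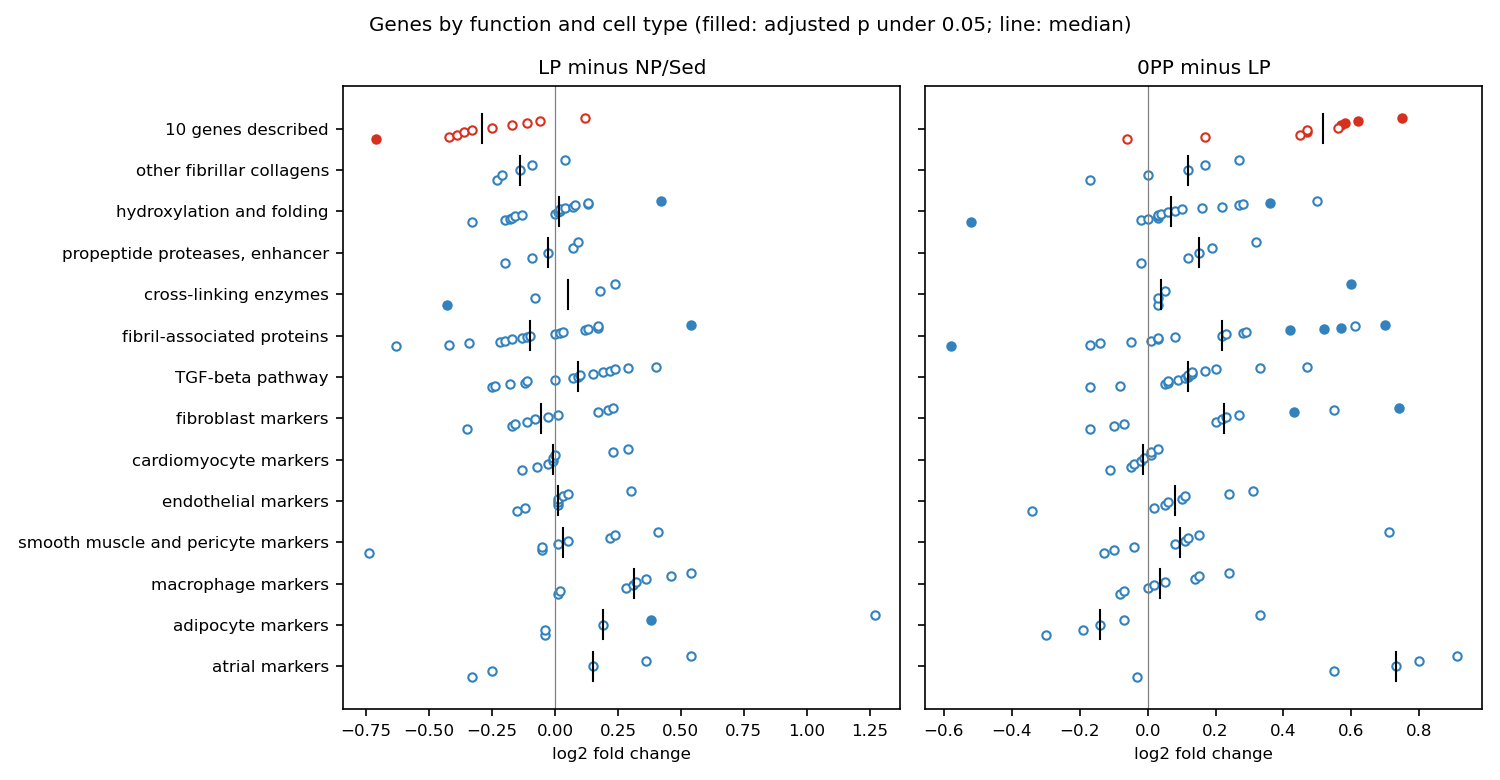
Log2 fold change (x axis) of each gene at its leading probe set in LP minus NP/Sed (left) and 0PP minus LP (right), by list (y axis), filled where the adjusted p is under 0.05, with the list median as a line. The 10 genes described have the lowest median in LP (-0.29) among the lists shown, and after birth a median of 0.51 that is below that of the atrial markers (0.73).

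Of 10 fibroblast markers 0 passed in LP minus NP/Sed under limma or Cyber-T (3 higher and 1 lower at an unadjusted p under 0.05), with a median of -0.05, and their mean level relative to the 18-array mean of each gene was -0.21 to -0.08 in the LP arrays and -0.18 to 0.00 in NP/Sed. None was near the floor, the lowest mean log2 value being 7.13. From LP to 0PP, 2 of 10 rose, beside 0.566% of all probe sets called higher by limma. They were Mfap5 (0.74 ± 0.15, adjusted p = 0.0232), a microfibril protein of adventitial fibroblasts, and Tcf21 (0.43 ± 0.10, adjusted p = 0.0367), a transcription factor of cardiac fibroblasts. The mean level of the 10 was 0.05 to 0.12 in 0PP, above all LP arrays. The Cyber-T test called 3 of the 10 higher there, and at an unadjusted p under 0.05 6 were higher and 1 lower, with Thy1, a fibroblast surface protein, at 0.55 (adjusted p = 0.0515). Against MP, 7EX and 21EX, 2, 4 and 3 of the 10 were lower in LP and 0 higher under limma. The medians there were -0.09, -0.30 and -0.34, and 0.573%, 1.43% and 1.69% of all probe sets were called lower. The part of these markers in the course of the collagens was not tested. Of 8 cardiomyocyte markers 0 passed in LP minus NP/Sed or 0PP minus LP under limma, with medians of -0.01 and -0.01, while Cyber-T called 1 higher into LP and 0 out of it. At an unadjusted p under 0.05 there were 2 higher and 1 lower into LP and 0 out of it. Of 5 atrial markers 0 passed in either comparison under limma, and Cyber-T called 0 into LP and 1 higher out of it, with 1 lower and 1 higher at an unadjusted p under 0.05. Their mean level, on the same relative scale, varied from -0.71 to 0.53 in LP and from -0.21 to 0.77 in 0PP, and its part was not tested either. Under limma LP was lower than 7EX at 1 atrial marker, Nppa (-0.96, adjusted p = 0.0467), beside 1.43% of all probe sets called lower. Of 8 endothelial and 8 smooth muscle and pericyte markers, 0 passed in either comparison under limma. LP was lower than 7EX at 2 endothelial markers and 1 smooth muscle marker, and lower than 21EX at 1 endothelial marker (limma). Of all probe sets 1.43% and 1.69% were called lower in these comparisons. The Cyber-T test called 1 smooth muscle marker lower into LP and no other of these 16, and at an unadjusted p under 0.05 there were 0 endothelial calls and 1 higher and 1 lower among smooth muscle markers into LP, with 2 higher and 1 lower and with 1 higher, respectively, out of it. Acta2, the smooth muscle actin, read 10.89, 10.87 and 11.41 in NP/Sed, 10.20, 9.89 and 10.89 in LP and 10.49, 11.51 and 11.09 in 0PP. LP overlapped both groups, with -0.74 ± 0.23 into LP (adjusted p = 0.139) and 0.71 ± 0.23 out of it (adjusted p = 0.232), and it was lower in LP than in 7EX by a log2 difference of -1.08 ± 0.23 (adjusted p = 0.013). Its part in the course of the collagens was not tested.

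The genes whose pattern over the 18 arrays was most like the mean course of Col1a1, Col1a2 and Col3a1 were mostly other matrix genes. That course, given relative to the 18-array means, ran from -0.64 to -0.43 in LP, from -0.21 to 0.12 in NP/Sed, from -0.10 to 0.15 in 0PP, and from 0.13 to 0.52 in MP. Among 9164 candidate genes the closest were Col14a1 (Pearson r = 0.960), Col6a3 (0.928), Vim (0.903), Rab31 (0.899), Col6a2 (0.895), Col15a1 (0.885), Fndc1 (0.884), Col4a4 (0.878), Tmsb10 (0.872) and Col6a1 (0.871). These r values describe arrays that share their groups and carry no test. Col14a1 read 7.03, 7.01 and 7.04 in NP/Sed, 6.60, 6.31 and 6.27 in LP and 7.19, 7.28 and 6.82 in 0PP. Col15a1, a basement membrane collagen, read 8.36, 8.51 and 8.36, then 7.73, 7.57 and 7.32, then 8.19, 8.35 and 8.29 in the same groups, with the LP arrays far below the others (-0.87, adjusted p = 0.00146, and 0.74, adjusted p = 0.00558). Of the members outside the reference, Pcolce (r = 0.86), Col5a2 (0.87) and Sparc (0.80) were close to the course at their leading probe sets, Col5a1 (0.76), Serpinh1 (0.73) and Col5a3 (0.63) less so, and Lox (-0.09) was not.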

How the data were processed

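Left ventricular RNA was measured on 18 Affymetrix mouse arrays. The deposited values are log2 expression values, made by the authors with RMA over all arrays together. This equalises the distribution of every array, so a difference is relative to the other transcripts of the same RNA. The number of arrays limits the precision.

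After removal of 64 control probe sets, 45037 were tested. The platform annotation names 1 gene for 34945 of them, more than 1 for 932 and no gene for 9160. In R 4.3.3, limma 3.58.1 was fitted to the 6 group means (12 residual and 6.45 prior degrees of freedom), with two-sided moderated tests in 9 comparisons and Benjamini-Hochberg adjustment over all probe sets of each. Passing means an adjusted p under 0.05. The authors tested with Cyber-T and PPDE and a fold limit of 75%. Arrays were grouped by their labels, and the scripts were tested on simulated data.

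The 10 genes and the 13 lists (123 entries, 114 measured) were chosen with earlier results of these data known. Of each list at most 3 genes are named, those of smallest p over LP minus NP/Sed and 0PP minus LP, plus any gene of a list of 5 or fewer and the 10 genes closest to the mean course of Col1a1, Col1a2 and Col3a1 among those with a mean of at least 6. C1qa, Adgre1 and Csf1r were named after their values were seen.

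Alternatives were the 75% fold limit, a re-implemented Cyber-T test with Benjamini-Hochberg adjustment, the compared groups alone, a variance trend over intensity, a filter at a mean of 5, median centring, repeated quantile normalization, the mean of a gene's probe sets, a replicate block, adjustment for the mean of the Gapdh and beta-actin 3′ minus 5′ signals (the 3′ minus 5′ covariate), and each array left out.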

Additional observations from a re-analysis of the deposited data

Results flagged for a closer look

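The change against a shared reference differed between groups at leading probe sets in 4 direct comparisons (limma, adjusted p under 0.05). After birth against late pregnancy, Col3a1 (0.75), Col5a2 (0.62), Serpinh1 (0.58), Col5a1 (0.57) and Col1a2 (0.47) were higher in 0PP. Late pregnancy against mid-pregnancy gave lower values in LP for Col3a1 (-1.03), Col1a1 (-0.91), Col1a2 (-0.71), Col5a2 (-0.64), Pcolce (-0.56), Col5a1 (-0.54) and Col5a3 (-0.49).

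Late pregnancy also differed from wheel running. Against 7EX, LP was lower for Col3a1 (-0.88), Col1a1 (-0.72), Pcolce (-0.62), Col1a2 (-0.60), Col5a2 (-0.60), Col5a3 (-0.58), Sparc (-0.56) and Serpinh1 (-0.46). Against 21EX, it was lower for Col3a1 (-0.75), Col1a1 (-0.67), Col5a3 (-0.61), Pcolce (-0.58), Col5a2 (-0.49), Col1a2 (-0.46) and Serpinh1 (-0.46). All 4 comparisons share the LP arrays, and the values are log2 differences of group means.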

How the results depend on the processing

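Counts of member probe sets past the threshold (of 24) depended on the setting. With the 75% fold limit they were 0 in MP minus NP/Sed, 1 in LP minus NP/Sed, 0 in 0PP minus NP/Sed, 0 in 7EX minus NP/Sed, 2 in 0PP minus LP, 6 in LP minus MP, 4 in LP minus 7EX and 1 in LP minus 21EX. The Cyber-T test gave 7 in MP minus NP/Sed, 5 in 7EX minus NP/Sed, 2 in 21EX minus NP/Sed and 16 in 0PP minus LP. Fits of the compared groups alone gave 1 in MP minus NP/Sed, 1 in 0PP minus NP/Sed, 0 in 7EX minus NP/Sed, 3 in 0PP minus LP and 5 in LP minus MP. An intensity trend gave 1 in 21EX minus NP/Sed and 15 in 0PP minus LP, a mean of at least 5 gave 1 and 13 there, and repeated quantile normalization gave 2 in 0PP minus NP/Sed. After adjustment for the 3′ minus 5′ covariate the counts were 1 in MP minus NP/Sed, 0 in 7EX minus NP/Sed and 7 in LP minus 7EX. The causes of these shifts were not tested, except that the fold limit is an added condition and the smaller fits use fewer arrays. Every other setting, apart from the replicate block and single arrays, kept the count within 1.5 times. With each array left out in turn the counts ran from 1 to 7 in MP minus NP/Sed, 3 to 3 in LP minus NP/Sed, 0 to 4 in 0PP minus NP/Sed, 0 to 2 in 7EX minus NP/Sed, 0 to 1 in 21EX minus NP/Sed, 4 to 14 in 0PP minus LP, 10 to 15 in LP minus MP, 12 to 16 in LP minus 7EX and 6 to 14 in LP minus 21EX. At the leading probe sets the sign turned for Sparc in LP minus NP/Sed (0.06 without NP/Sed replicate 1, in a range from -0.17 to 0.06 over arrays left out) and for Lox in 0PP minus LP (0.00, 0.06 and 0.05 without LP replicate 1, LP replicate 3 and 0PP replicate 3, in a range from -0.23 to 0.06), neither of which passed. Col3a1 passed in LP minus NP/Sed in all 18 such fits, and in 0PP minus LP in 17, with adjusted p = 0.0654 without 0PP replicate 2.

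The labels do not say whether a replicate number marks a shared day or batch. Deviations from the group means correlated at -0.027 on average (from -0.27 to 0.18) over 45 pairs of one number and at 0.014 over 90 pairs of different numbers, and 2 of 18 arrays correlated best with their own number. Deviations cancel out within each group, so these averages depend on each other and cannot decide on pairing. With the number as a replicate block the counts were 2 in MP minus NP/Sed, 1 in 0PP minus NP/Sed and 0 in 7EX minus NP/Sed, and in the other comparisons they stayed within 1.5 times (3 in LP minus NP/Sed, 8 in 0PP minus LP).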

Other observations

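Of 8 macrophage markers, 4 were higher in MP than in NP/Sed (limma, adjusted p under 0.05), beside 0.615% of all probe sets: Cd68 (0.56 ± 0.12), C1qa (0.59 ± 0.11), Adgre1 (0.56 ± 0.13) and Csf1r (0.32 ± 0.08), known for phagocytosis, complement, macrophage identity and growth factor signalling. In LP 0 passed under limma or Cyber-T, although 6 were higher at an unadjusted p under 0.05 and the median was 0.31. The median was 0.49 in MP, and the list's median was also above 0 against NP/Sed in 7EX (2 called, median 0.40), 21EX (2 called, median 0.42) and 0PP (1 called, median 0.37). Of all probe sets 0.409%, 1.38% and 1.46% were called higher in these groups. All of these comparisons share the NP/Sed arrays. The mean level of the macrophage markers relative to the 18-array means was -0.37 to -0.13 in NP/Sed, 0.03 to 0.23 in MP, -0.19 to 0.22 in LP and 0.00 to 0.14 in 0PP. Of 5 adipocyte markers, 1 was higher and 0 lower in LP than in NP/Sed under limma and under Cyber-T, with 2 higher at an unadjusted p under 0.05 and 2 of 5 differences under 0. The 1 was Cidea, a lipid droplet protein (0.38 ± 0.09, adjusted p = 0.0423), beside 1.19% of all probe sets called higher by limma. Adipoq, the adipokine adiponectin, was higher in MP than in NP/Sed by 2.46 ± 0.43 (adjusted p = 0.0102) and was at 1.27 ± 0.43 in LP (adjusted p = 0.169). Its mean over the 18 arrays was 4.85, and it read 3.27, 4.22 and 3.87 in NP/Sed and 7.42, 6.27 and 5.05 in MP. Of 8 adipocyte markers listed 5 were measured, and 3 of these had a mean under 5.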
